A study of Homo sapiens with 6 samples.

Results

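The regions described here are the H2A.Z sites of a stretch of human chromosome band 3p21. Overlapping or touching peaks of the ubiquitylated and the total H2A.Z peak lists were merged, and the merged regions whose midpoint lay at chr3:46000000-54000000 of the hg19 build were kept. This gave 1245 regions of 198179 in the whole genome, over 526.1 kb. The members were chosen from these peak lists, so their numbers and classes are given as a description. The first region inside the limits was chr3:46008347-46008623 and the last was chr3:53961294-53961764. The nearest regions outside were chr3:45956330-45956732 and chr3:54026056-54026263.

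The samples were cells of HEK293T, a widely used line from human embryonic kidney, in 3 groups of 2 samples: ubiquitylated H2A.Z recovered on streptavidin, total tagged H2A.Z recovered on Flag agarose, and histone H3. All groups came from cells transfected with plasmids for H2A.Z-1 fused at its C-terminus to Flag-BirA and for ubiquitin with an AviTag at its N-terminus. In the co-transfections these plasmids were at a ratio of 3:1. Chromatin was prepared 48 h after transfection and digested for 30 min with micrococcal nuclease (MNase), which cuts between nucleosomes. BirA is a biotin ligase that marks the AviTag, so streptavidin recovers nucleosomes with tagged ubiquitin near the fused histone, and all values refer to this introduced H2A.Z. Each form has its own pull-down reagent, so effects of the reagent and of ubiquitylation cannot be told apart. The lists hold no counts and no value per library, so depth is unknown. Replicate spread is reflected solely in the authors' irreproducible discovery rate (IDR, at most 0.05 per peak) and false discovery rate (FDR, at most 0.05 per differential region).

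The histone variant H2A.Z replaces H2A where remodelling complexes place it, mainly in nucleosomes beside transcription start sites and at enhancers. Its C-terminal tail can carry single ubiquitins, added by the RING1 ligases of Polycomb complexes, and this form is known from silent chromatin, including the inactive X chromosome. Band 3p21 is known for its many closely packed genes and for its loss in kidney and lung cancers. In the order of the RefSeq annotation of GRCh38.p14, 171 protein-coding genes run from CCR1 to ACTR8. The row holds 6 genes of chromatin regulators, among them SETD2 (the enzyme that trimethylates histone H3 at lysine 36), SMARCC1 and PBRM1 (subunits of SWI/SNF remodellers) and BAP1 (a deubiquitylase of histone H2A). The row also holds a tumour suppressor cluster of 12 genes that includes RASSF1, a regulator of Hippo signalling, and the inter-alpha-trypsin inhibitor genes ITIH1, ITIH3 and ITIH4. The annotation is of another build than the peak lists, so its positions were not used, and genes were not assigned to single regions here.

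The first comparison asked which H2A.Z sites of the stretch were found with each form. Sites of the total form alone outnumbered sites of the ubiquitylated form alone. Of the 1245 regions, 313 (25.1%) held ubiquitylated peaks only, 411 (33.0%) held total H2A.Z peaks only and 521 (41.8%) held peaks of both. Over the whole genome 28.9% held ubiquitylated peaks only, 29.2% total peaks only and 41.9% both, so the regions with both forms stood at the genome's share. On the rest of chromosome 3 the shares were 27.3% for ubiquitylated only, 33.8% for total only and 38.9% for both. The stretch therefore had about the same surplus of single-list total sites as its own chromosome. None of these differences was tested.

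Counts of single-list sites were also taken with and without the sites that the authors called differential. A region is called here when it stands in one of the authors' deposited differential lists, ubiquitylated-high where the streptavidin signal was the higher and total-high where the Flag signal was. Of the 477 single-list regions that were in neither list, 238 held ubiquitylated and 239 held total H2A.Z peaks. The ubiquitylated share of these was thus 49.9% (Wilson 95% interval 45.4 to 54.4%, counting error only). In the rest of the genome it was 52.1%. Among all 724 single-list regions of the stretch the ubiquitylated share was 43.2% (39.7 to 46.9%). Nearly all called single-list regions went towards their own list, so leaving out the calls removes more total-only sites by construction, and nothing is read from the evener split.

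The peaks behind the regions comprised 855 ubiquitylated peaks over 344.9 kb and 949 total H2A.Z peaks over 396.9 kb. Median peak width was 325 bp in the ubiquitylated and 338 bp in the total list. The authors' IDR, a measure that is low where a peak repeats well between replicates, is not stated to be the local or the global form, and single values are given as deposited. It had a median of 0.00127 in the ubiquitylated and 0.00295 in the total peaks. An IDR of at most 0.01 was met by 88.0% of the ubiquitylated and 77.4% of the total peaks. A larger share of the total peaks thus lay above 0.01. Regions with both forms had lower IDR values than single-list regions. The median of the lowest ubiquitylated IDR was 0.00105 in regions with both forms and 0.00158 in those with ubiquitylated peaks only. For the lowest total IDR the medians were 0.00241 in regions with both forms and 0.00367 in those with total peaks only.

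In regions with both forms the peaks lay largely on top of each other. Of these 521 regions, 486 (93.3%) held 1 peak of each form, and no region held more than 4 peaks. The shared bases made up 88.7% of the ubiquitylated and 82.1% of the total H2A.Z bases there. The total peak was usually the wider one: it was wider in 320 of the 486 regions with 1 peak of each (65.8%), and the ubiquitylated peak was wider in 163. Elsewhere the total peak was wider in 58.5% of such regions on the rest of chromosome 3 and in 54.5% in the rest of the genome. These differences were not tested.

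The next comparison asked which sites of the stretch differed between the streptavidin and the Flag pull-down. More sites were total-high. The authors' deposited table called 91 ubiquitylated-high regions, 7.31% of the members, where the share over all merged regions was 9.39%. It called 238 total-high regions, 19.1% of the members, where the share over all merged regions was 12.1%. In all 26.4% of the members were called, against 21.5% of all merged regions, and 916 members were in neither list. Of the 329 called members, 27.7% were ubiquitylated-high (Wilson 95% interval 23.1 to 32.7%, counting error only). The stretch was proposed with this direction known, so the share is a description without a test.

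Against its own chromosome the stretch differed mostly on the side of total H2A.Z. On the rest of chromosome 3, 6.92% of regions were ubiquitylated-high and 14% total-high, and 33.0% of the called regions were ubiquitylated-high. A high share on the total side was not confined to this stretch. Among 261 autosomal windows of 8 Mb with at least 50 calls, 54 had a higher percentage of total-high regions, and 91 had a lower ubiquitylated share of calls. A lower percentage of ubiquitylated-high regions was found in 130 of the 261, so the 7.31% of the stretch lay in the middle of the windows. The windows at 41 to 44 Mb of chromosome 6 and 40 to 45 Mb of chromosome 15 had ubiquitylated shares of 10.6% of 94 calls and 9.21% of 76 calls. The stretch thus mixed both directions more than those windows did, which were themselves singled out for their low shares. Its density was high at 155.6 regions per Mb, and of the 261 windows 33 held more regions than the stretch, whose 1245 compare with a median of 550.

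Single-list regions were called towards their own list, with 2 exceptions, while shared regions went both ways. Of the 313 members with ubiquitylated peaks only, 74 (23.6%) were ubiquitylated-high and 1 was total-high. Among all such regions of the genome 23.8% were ubiquitylated-high and 0.127% total-high, so the ubiquitylated sites of the stretch were called about as often as elsewhere. Of the 411 members with total peaks only, 1 was ubiquitylated-high and 171 (41.6%) were total-high, where the shares among all such regions were 0.0831% and 30.5%. Of the 521 members with both forms, 16 (3.07%) were ubiquitylated-high and 66 (12.7%) total-high, where the shares among all such regions were 5.97% and 7.52%. Both the single-list total sites and the shared sites thus stood on the total side of the genome's shares for their class. On the rest of chromosome 3, 3.66% of the shared regions were ubiquitylated-high and 9.4% total-high. Of the regions with total peaks only there, 30.5% were total-high. The ubiquitylated-high share of the shared members was thus close to that of their own chromosome. These differences were not tested. The members with total peaks only were also wider than their class elsewhere, with a median of 280 bp in the stretch and 250 bp in the rest of the genome. The part of width in the number of calls was not tested.

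**Figure D1:**
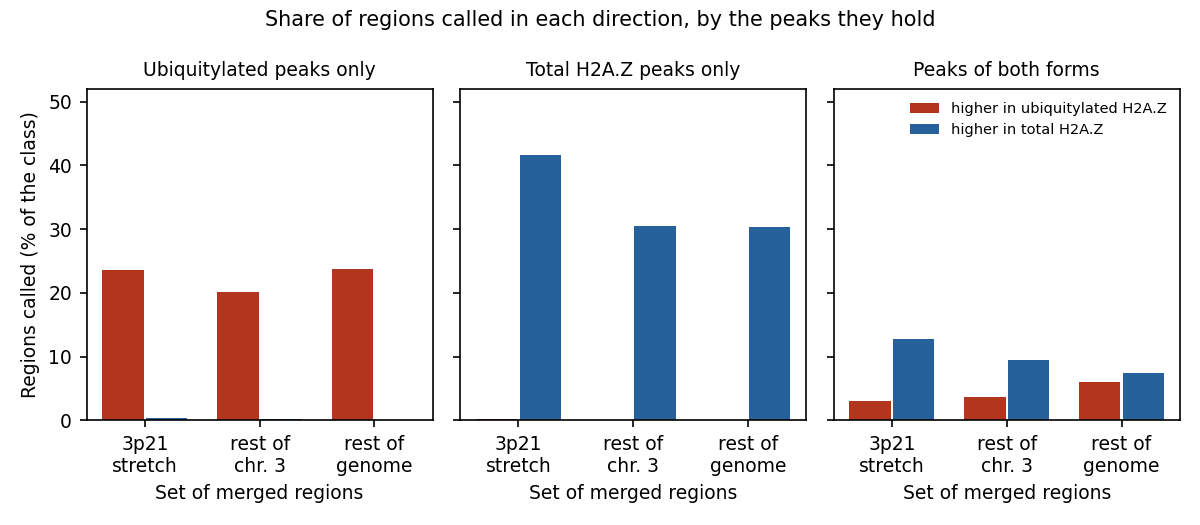
Percentage of merged regions called ubiquitylated-high (red) or total-high (blue) by the authors, in the 3p21 stretch, the rest of chromosome 3 and the rest of the genome, with 1 panel for each class of peaks held. In the stretch 41.6% of regions with total peaks only were total-high, and 23.6% of those with ubiquitylated peaks only were ubiquitylated-high.

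The excess on the total side was made of moderate changes. The deposited fold changes, ubiquitylated over total, were taken as log2, since no base is stated, and rest on a normalization that the sources used here do not give. The 91 ubiquitylated-high regions of the authors' deposited table had a median log2 fold change of 0.74 (quartiles 0.57 and 0.91, highest 1.61). The 238 total-high regions of the authors' deposited table had a median of -0.73 (quartiles -0.89 and -0.57, extreme -1.73). Single changes were thus of like size in both directions, and close to the medians that the authors' deposited table gives for the rest of the genome, 0.68 and -0.76. Changes of at least 2-fold in the authors' deposited table numbered 17 towards ubiquitylated H2A.Z (1.37% of members, with 1.47% over all merged regions) and 34 towards total H2A.Z (2.73%, with 2.39% over all). These shares were near the genome's in both directions. At an FDR of at most 0.01 the authors' deposited table held 50 ubiquitylated-high regions (4.02% of members, 5.26% over all) and 140 total-high ones (11.2%, 7.21% over all).

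Among called members, shared sites had smaller absolute log2 fold changes than single-list sites. The 16 shared ubiquitylated-high members of the authors' deposited table had a median log2 fold change of 0.48, and the 74 members with ubiquitylated peaks only one of 0.84. On the total side the authors' deposited table had a median of -0.54 for the 66 shared members and of -0.81 for the 171 with total peaks only. In the rest of the genome the medians from the authors' deposited table had the same order. They were 0.51 for shared and 0.76 for ubiquitylated-only regions, and -0.56 for shared and -0.84 for total-only regions. At shared members with 1 peak of each form, the direction of the call went with the wider peak in every case. The ubiquitylated peak was wider at all 14 such ubiquitylated-high members, with median widths of 787 bp for the ubiquitylated and 417 bp for the total peak. The total peak was wider at all 59 such total-high members, with medians of 363 bp for the ubiquitylated and 596 bp for the total peak. At the 413 such members in neither list the medians were 336 bp for the ubiquitylated and 357 bp for the total peak. Peaks and calls come from the same libraries, so neither the classes nor the widths are separate evidence of the change. A single-list site lacks a peak of the other form, so a larger change there is favoured by construction.

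Called regions were wider than uncalled regions of the same class. Members with ubiquitylated peaks only had a median width of 382 bp where they were ubiquitylated-high and of 261 bp where they were in neither list. Members with total peaks only had a median of 347 bp where they were total-high and of 237 bp where they were in neither list. Among members with both forms the medians were 817 bp if ubiquitylated-high, 628 bp if total-high and 407 bp if in neither list. The rest of the genome had the same order. Called and uncalled regions there had medians of 416 and 249 bp with ubiquitylated peaks only, and of 310 and 231 bp with total peaks only. With both forms the medians there were 814, 617 and 391 bp. Over all 1245 members the median was 337 bp, against 313 bp in the rest of the genome.

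**Figure D2:**
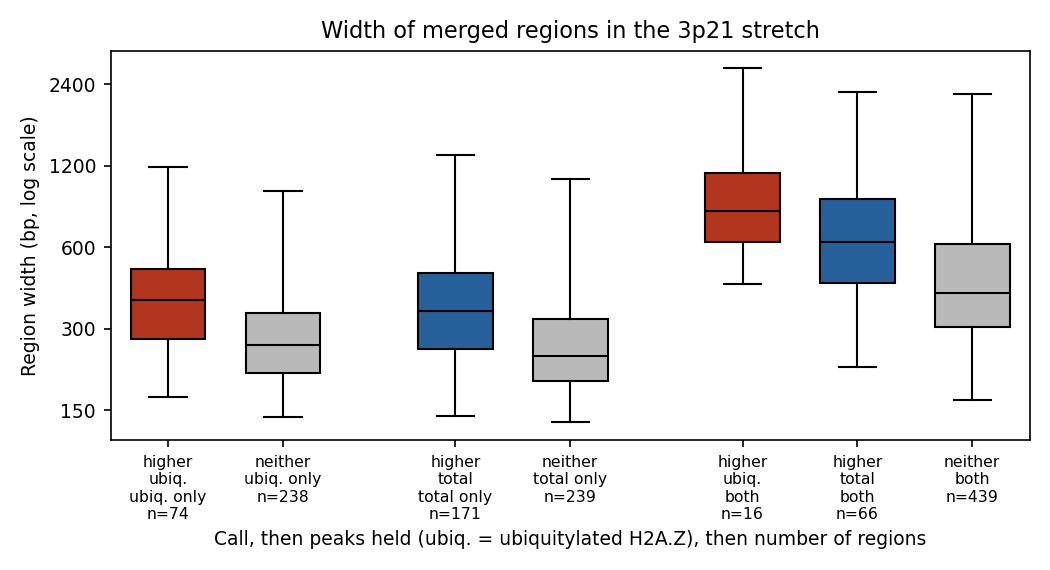
Width in bp (log scale) of the merged regions of the 3p21 stretch by call and by peaks held; boxes span the quartiles, lines inside mark medians and whiskers reach the lowest and highest value. The ubiquitylated-high regions that hold both forms are the widest group, with a median of 817 bp, and the uncalled regions with total peaks only the narrowest, with 237 bp. The 2 single-list regions called against their own list are left out.

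The strongest calls towards ubiquitylated H2A.Z were single peaks without a counterpart in the total list. The lowest FDR in this direction in the authors' deposited table was 8.8e-11, at chr3:48698221-48699025, where the log2 fold change was 1.56. The IDR of its peak was 0.00817, above the upper quartile of 0.00504 among members with ubiquitylated peaks only. Another of the strongest calls lay within 4 kb of this site: chr3:48694394-48694818, for which the authors' deposited table gave a log2 fold change of 1.30 and FDR 9.3e-07. These calls sit in a part of the stretch where most other calls were total-high. The second lowest FDR in the authors' deposited table, 4.1e-07, belonged to chr3:51772705-51773121 (log2 fold change 1.23), a solitary site whose nearest member was 19268 bp away. Next in the authors' deposited table came chr3:50332158-50332685 (1.07, FDR 1.5e-05), chr3:53033128-53033562 (1.22, FDR 3.1e-05) and chr3:50255794-50256417 (0.85, FDR 5.8e-05). The site chr3:53033128-53033562 was also solitary, with 42866 bp to its nearest member. The other calls named so far had a member 315, 54, 1260 and 1353 bp away, in order of FDR. The authors' deposited table gave its largest log2 fold changes in this direction, 1.61, to both chr3:52557381-52557601 and chr3:46008347-46008623, narrow regions of 221 and 277 bp.

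Among ubiquitylated-high sites with both forms, the lowest FDR of the authors' deposited table was 0.00011, at chr3:51742946-51743460 (log2 fold change 0.79). There the ubiquitylated peak had an IDR of 8.05e-06 and the total peak one of 0.0179. Next the authors' deposited table had chr3:50644930-50645560 (0.74, FDR 0.00015) and chr3:46933697-46934514 (0.58, FDR 0.0011). At these sites too the ubiquitylated peak had the lower IDR. The values were 0.000947 for the ubiquitylated and 0.00622 for the total peak at the first site. They were 6.96e-05 for the ubiquitylated and 0.0122 for the total peak at the second. Over all members with both forms the ubiquitylated median was also the lower, 0.00105 against 0.00241, so a lower ubiquitylated IDR is not particular to this direction.

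The strongest calls towards total H2A.Z were also single peaks, and most of them had a close neighbour. The lowest FDR of the whole stretch in the authors' deposited table, 3.4e-12, lay at chr3:49170578-49171040, with a log2 fold change of -1.69. The next member stood 387 bp from it. The IDR of its peak was 0.0162, above the upper quartile of 0.00983 among members with total peaks only. Then came in the authors' deposited table chr3:48545064-48545647 (-1.43, FDR 5.1e-11) and chr3:48955730-48956152 (-1.42, FDR 2e-09), with neighbours 90 and 153 bp away. The remaining ones by FDR in the authors' deposited table were chr3:52232211-52232714 (-1.29, FDR 1.8e-08), chr3:47206788-47207127 (-1.73, FDR 3.1e-08) and chr3:48514035-48514513 (-1.09, FDR 5e-08). Among these 6 only chr3:47206788-47207127 stood alone, with 32121 bp to its nearest member, and it had the largest fold change towards total H2A.Z. Of these 6 sites, 4 lay between 48 and 50 Mb.

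Shared total-high sites included the total peak of lowest IDR in the stretch. At chr3:48647195-48648100, which held a total peak of IDR 5.48e-06 and a ubiquitylated peak of IDR 9.41e-05, the authors' deposited table gave a log2 fold change of -0.92 and an FDR of 1.3e-07. The other leading shared sites in the authors' deposited table were chr3:49976982-49977367 (-1.07, FDR 5.9e-07) and chr3:49966609-49967247 (-0.93, FDR 2.3e-06), which lie near each other. Peaks of low IDR were also found at sites in neither list. The lowest ubiquitylated IDR of the stretch, 3.57e-07, was at chr3:46636908-46637206, a shared site in neither differential list. The second lowest, 4.29e-07, was at chr3:46733952-46735164, which the authors' deposited table gave as total-high (-0.39, FDR 0.01). The second lowest total IDR, 7.24e-06 at chr3:50310580-50311571, was again at a shared site in neither list.

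The broadest regions all held both forms and went in different directions. The widest, chr3:52255082-52257826, measured 2745 bp and held 1 ubiquitylated and 3 total H2A.Z peaks; the authors' deposited table gave it as ubiquitylated-high (0.39, FDR 0.0047). The second widest, chr3:46886726-46888970 with 2245 bp, was total-high in the authors' deposited table (-0.54, FDR 1.7e-05). Those at chr3:48540212-48542412 and chr3:50230374-50232480 were in neither list. The fifth, chr3:49939661-49941656, was ubiquitylated-high in the authors' deposited table (0.39, FDR 0.0085).

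The last comparison asked how the sites and their directions were arranged along the stretch. The 16 tiles of 0.5 Mb held between 4 and 165 members, with a median of 70. In every one of the 16 total-high calls outnumbered ubiquitylated-high ones. Over all merged regions total-high calls were also the more numerous, with 23960 against 18614. Some tiles lay below the genome's 12.1% of total-high regions. They had 10.3% at 46 to 46.5 Mb, 9.09% at 46.5 to 47 Mb, 10.7% at 52.5 to 53 Mb and 10.9% at 53.5 to 54 Mb. The margin between the directions differed widely among tiles. In numbers of calls it was widest within the part at 48 to 50 Mb. Between 48 and 50 Mb, 287 members held 23 ubiquitylated-high and 89 total-high calls, so that 31.0% of the members there were total-high. Without these members 68 of the remaining 958 (7.10%) were ubiquitylated-high and 149 (15.6%) total-high. The 15.6% lies above the 12.1% of all merged regions but nearer to the 14% on the rest of chromosome 3 than the 19.1% of the whole stretch does. The tile at 48.5 to 49 Mb had the highest percentage on the total side among tiles with at least 10 calls, 34.8% of 66 members. The tile at 46.5 to 47 Mb had the lowest, 9.09% of 165 members, although it was the most crowded tile.

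The crowded tiles were not alike in the forms they held. At 50 to 50.5 Mb 147 members included 54 with ubiquitylated peaks only and 26 with total peaks only. At 52 to 52.5 Mb 153 members included 53 with ubiquitylated peaks only and 37 with total peaks only. These were the only tiles of the 16 with more ubiquitylated-only than total-only regions. Calls there were still more often total-high. At 50 to 50.5 Mb 19 members (12.9%) were ubiquitylated-high and 26 (17.7%) total-high. At 52 to 52.5 Mb 16 (10.5%) were ubiquitylated-high and 30 (19.6%) total-high. Over all merged regions these shares were 9.39% and 12.1%. The highest ubiquitylated share of calls among tiles with at least 10 was at 51.5 to 52 Mb, where 6 calls were ubiquitylated-high and 8 total-high (42.9%).

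Some parts of the stretch held almost no ubiquitylated calls or almost no sites. Over all merged regions 9.39% were ubiquitylated-high and 12.1% total-high. At 53.5 to 54 Mb 92 members held 0 ubiquitylated-high and 10 total-high calls (10.9%), so the total side was not raised there. At 47.5 to 48 Mb 43 members held 0 ubiquitylated-high and 8 total-high calls (18.6%), which are small numbers. The tile at 51 to 51.5 Mb held 4 members, of which 3 were total-high. It falls in the longest gaps between members, chr3:51016540-51422092 (405.6 kb) and, just before it, chr3:50712308-51016131 (303.8 kb). The next longest gap was chr3:47621347-47822755 (201.4 kb). Gaps of over 50 kb numbered 29, whereas 614 of the 1244 gaps (49.4%) were under 1 kb. The median gap was 1028.5 bp, against 2108 bp on the other chromosomes.

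**Figure D3:**
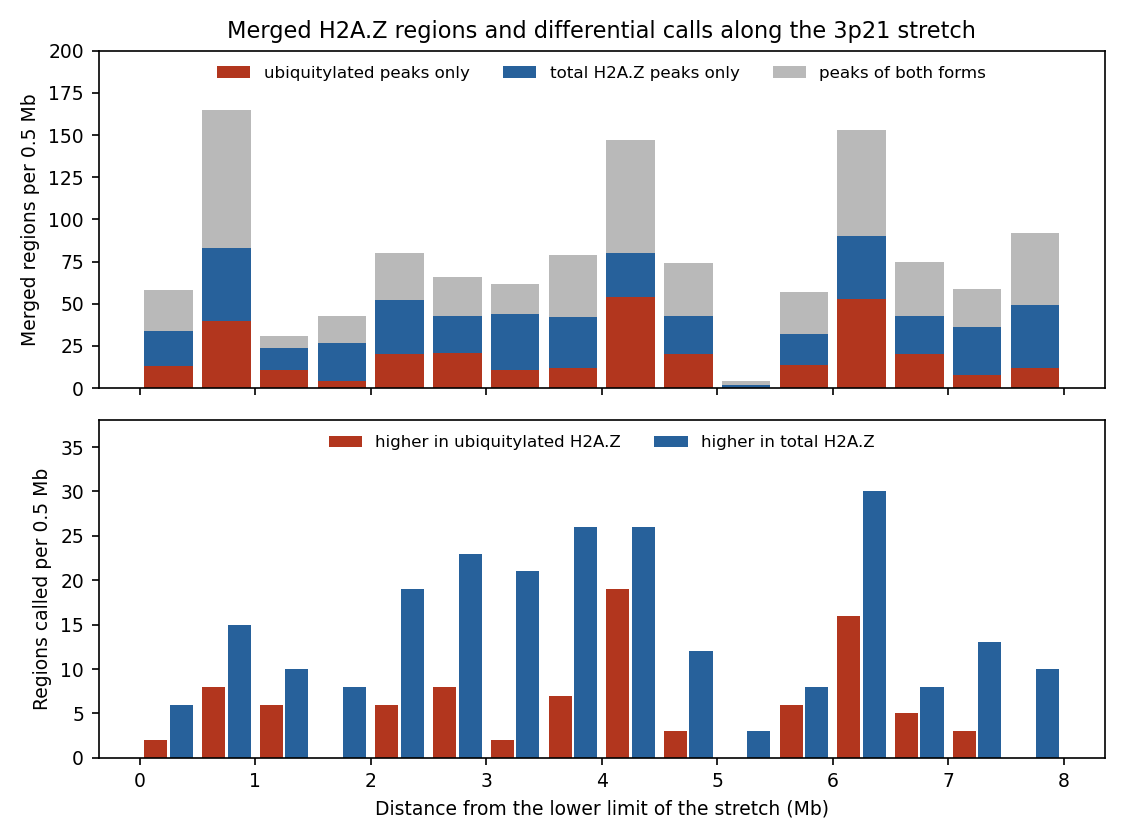
Merged regions by the peaks they hold (upper panel) and regions called by the authors in each direction (lower panel), counted in tiles of 0.5 Mb from the lower limit of the 3p21 stretch. Total-high calls outnumber ubiquitylated-high ones in all 16 tiles, and they are also the more numerous over all merged regions. The tile that starts at 5 Mb from the limit holds 4 regions.

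Neighbouring calls less than 1 kb apart mostly pointed the same way. Of 328 pairs of adjacent called members, 247 (75.3%, Wilson 95% interval 70.4 to 79.7%) had the same direction, against 72.5% on all chromosomes. The numbers of calls in each direction would alone give 60.0% in the stretch and 50.8% on all chromosomes, so these percentages stand at different distances from what the numbers give. Below 1 kb apart it was 78 of 83 pairs (94.0%), at 1 to 10 kb 72 of 96 (75%) and at 10 to 100 kb 84 of 132 (63.6%). At 100 kb or more it was 13 of 17 pairs (76.5%, interval 52.7 to 90.4%), too few to place above or below the nearer pairs. At 10 kb or more it was 65.1% of 149 pairs (57.2 to 72.3%), beside the 60.0% that the numbers of calls alone give. On all chromosomes it was 66.5% of 25130 such pairs, beside 50.8%. Adjacent pairs share members, so these intervals are no test, and agreement beyond 10 kb was not tested.

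The calls formed 82 series without an opposite call between, 41 in each direction. Such series alternate along the chromosome, so their numbers in both directions are alike by construction. With 238 total-high and 91 ubiquitylated-high calls, the total series then hold more calls on average. No series from elsewhere in the genome are set beside them here. The series with the most bases spanned 1056.2 kb with 12 calls on the total side and 135 kb with 2 calls on the ubiquitylated side. The one on the total side includes the longest gaps between members, of 405.6 and 303.8 kb, so much of its length holds no site. Of the 41 ubiquitylated series 19 were single calls and 5 had 5 or more. Of the total series 8 had 10 or more calls, and these held 116 of the 238 total-high calls. By number of calls the longest total series ran over chr3:48700265-49209471 with 22 calls in 509 kb. It began right after the strongest ubiquitylated call and contained the strongest total call of the stretch. From the authors' deposited table its median log2 fold change was -0.74, and its 39 members held 3 with ubiquitylated peaks only and 23 with total peaks only. By number of calls the longest ubiquitylated series had 7 calls over chr3:50406968-50513787 (107 kb), with 0.63 as the median of their log2 fold changes from the authors' deposited table. Its 43 members included 22 with ubiquitylated peaks only and 1 with total peaks only, so the uncalled sites there were mostly of the ubiquitylated list or shared. The members were selected along the genome with calls in view, so the length of a series was not tested.

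**Figure D4:**
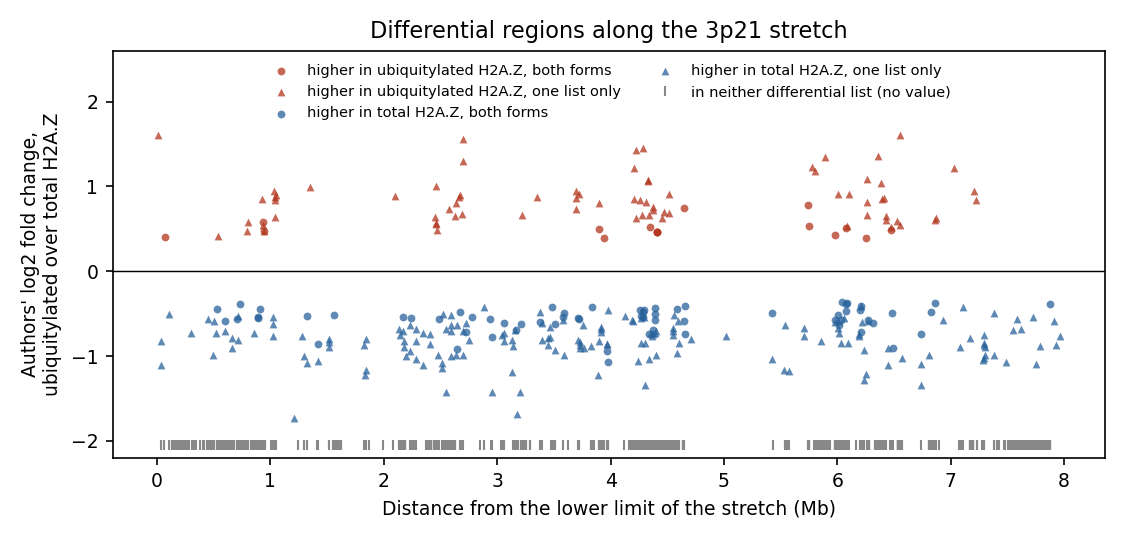
Authors' log2 fold change of ubiquitylated over total H2A.Z for each called member, against the distance in Mb from the lower limit of the stretch; circles hold both forms, triangles were found in one list only, and grey ticks at the bottom mark members in neither list, which have no value. Ubiquitylated-high calls (red) reach 1.61 and total-high calls (blue) -1.73, with 91 red and 238 blue points.

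The immediate surroundings differed between the directions. For ubiquitylated-high members the nearest member held ubiquitylated peaks only in 48.4% of cases and total peaks only in 13.2%. For total-high members the nearest held ubiquitylated peaks only in 9.24% and total peaks only in 52.9%. For members in neither list these shares were 22.7% and 30.7%. Total-high members also had closer neighbours, at a median of 242 bp, where ubiquitylated-high members had a median of 778 bp and members in neither list 456 bp. These shares and distances were taken in the stretch alone, so they are not shown to be particular to it. On all chromosomes, too, most adjacent calls (72.5%) had the same direction.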

How the data were processed

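ChIP-seq of HEK293T cells was compared between ubiquitylated H2A.Z (2 samples) and total H2A.Z (2 samples); the 2 H3 samples enter no comparison here. The build hg19 and Bowtie, SAMtools, MACS2 and edgeR appear in the submitters' processing notes, without versions or settings. The authors deposited a peak list for each form, with an IDR per peak (at most 0.05, local or global not stated), and 2 differential lists with an FDR and a fold change read as log2, because edgeR writes that scale. Replicates are combined in these lists; nothing in the labels says that they were separate cultures.

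Starts were raised by 1 base to 1-based coordinates, and 1 start in scientific notation was read as a whole number. All 42574 differential regions matched a merged region exactly. A region holds both forms where it contains peaks of both lists. The merging was checked on simulated peaks. No test was fitted, since the files hold no values per library. Wilson intervals (95%) cover counting error only. The members, lists and rules were chosen with earlier results of these data known. Named regions were, in each direction, the 6 of lowest FDR, the 3 of largest fold change and the 3 of lowest FDR with both forms, plus the 5 widest, the 3 of lowest IDR per list, the series with most calls, the longest gaps, edges and extreme tiles. Analyses used Python 3.11.15 with pandas 2.3.3, numpy 2.4.6 and scipy 1.17.1; figures used matplotlib 3.10.9.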

Additional observations from a re-analysis of the deposited data

How the results depend on the processing

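No paired analysis was possible because single libraries have no values in these lists, and no replicate could be left out for the same reason. Of 29 alternatives, 15 stayed within 1.5 times the count or within the counting interval of the share or median. With peaks of IDR at most 0.01, 34.2% of members held both forms and 33.5% ubiquitylated peaks only. With 50% of both peaks required to overlap, 36.8% held both. At FDR 0.01 the calls numbered 50 ubiquitylated-high and 140 total-high, at 2-fold 17 and 34, and among members with both forms 16 and 66; these limits keep fewer regions by construction. The ubiquitylated share of calls was 33.3% at 2-fold and 19.5% among members with both forms. Among regions with both forms it was 28% on the rest of chromosome 3 and 44.4% in the rest of the genome. Without the members between 48 and 50 Mb, an alternative chosen after seeing the data, 149 were total-high. Merging peaks up to 200 bp apart gave a median width of 360 bp. Adjacent calls at least 10 kb apart shared a direction in 65.1% of pairs. Under FDR 0.01, at 2-fold, among members with both forms, with trimmed edges and without 48 to 50 Mb, total-high members outnumbered ubiquitylated-high ones. This majority was not particular to the stretch. Over all merged regions 14279 were total-high and 10419 ubiquitylated-high at FDR 0.01. At 2-fold these numbers were 4738 and 2908, and among regions with both forms 6253 and 4962.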

Other observations

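A few called sites went against their own list or against a near neighbour. The 1 member with a total peak only that was ubiquitylated-high in the authors' deposited table was chr3:52556154-52556650 (log2 fold change 0.55, FDR 0.03). It lies beside chr3:52557381-52557601, one of the largest changes towards ubiquitylated H2A.Z. The 1 member with a ubiquitylated peak only that was total-high in the authors' deposited table was chr3:49044858-49045015 (-0.75, FDR 0.022), a region of 158 bp inside the total series with the most calls.

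Opposite calls stood less than 10 kb apart in 29 of the adjacent pairs, and less than 2 kb apart in 10. The closest pair in the authors' deposited table was chr3:52255082-52257826 (0.39, FDR 0.0047), the widest region of the stretch, with chr3:52254714-52254860 (-1.21, FDR 0.0036) 221 bp before it. The next pair in the authors' deposited table was chr3:48632387-48632765 (0.80, FDR 0.019) and chr3:48633020-48633223 (-0.99, FDR 0.014), 254 bp apart. In a pair 756 bp apart, chr3:50334606-50335007 was ubiquitylated-high in the authors' deposited table (1.06, FDR 0.00067) and chr3:50335764-50336842 was total-high (-0.74, FDR 4.8e-06). These pairs were picked out after their values were seen.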
